A study of Homo sapiens with 22 samples.

Results

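SLC25 genes encode the mitochondrial carriers, the family of membrane proteins that moves metabolites across the inner mitochondrial membrane. The genes described here were chosen by name. They are the 47 of 59087 gene names in the count tables that consist of SLC25A and a number, and 1 further name of this form was left out by the rule and is not analysed here. The rule uses no measured value, but the genes and lists described below were chosen with earlier results of these data known.

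RNA was sequenced from HUDEP-2 cells, an immortalized line of human erythroid progenitors. The cells grow in an expansion medium with stem cell factor, erythropoietin, dexamethasone and doxycycline, and they mature towards red cells once the medium is changed. Libraries were made from cells in expansion (D0) and at day 6 of maturation (D6), each library from 1 subclone of the line. The H2A.X experiment compared 2 wild-type (WT) subclones with 3 knockout (KO) subclones that had lost the coding region of the histone variant gene H2A.X, and the BAZ1B experiment compared 3 WT with 3 KO subclones that had lost the first exon of the kinase gene BAZ1B. Both deletions were made with CRISPR/Cas9 and pairs of guide RNAs delivered by lentivirus, so each KO group is a small set of clones, and what a deletion does and what is particular to its clones cannot be told apart from so few. The D0 and D6 libraries of 1 KO number came from 1 subclone.

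SLC25 carriers share a fold made of repeats that each span the membrane with a pair of helices, and they work by exposing a central binding site to either side of the membrane in turn. Most are antiporters that exchange 1 substrate for another, such as ADP for ATP. Red cell precursors depend on several of them: heme synthesis starts and ends inside mitochondria, so glycine and iron must enter, and glutathione must be imported to keep the iron-sulfur chemistry there intact.

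Total counts ranged from 11910141 to 21013004 per library in the H2A.X experiment and from 33199408 to 41273244 in the BAZ1B experiment. The biological coefficient of variation, the spread between replicates that counting error does not cover, was 0.239 in the first and 0.0865 in the second, so smaller differences could be called in the BAZ1B experiment. Transcripts of both targeted genes were still counted in the KO libraries. H2A.X, which the table lists as H2AFX, had 1772 ± 279 normalized counts in WT (SD, n = 2) and 627 ± 255 in KO at D0 (SD, n = 3), and BAZ1B had 9813 ± 105 and 7418 ± 899 (SD, n = 3 each). In 5 of the 6 H2A.X KO libraries, and in no WT library, the column name carries the mark "Redo", which at D0 cannot be told apart from the genotype. All 9 erythroid marker genes, hemoglobin and glycophorin genes among them, were counted in all groups. In the H2A.X experiment their summed normalized counts at D0 were lower in KO (207069 to 276919) than in WT (406777 to 554608), and the ranges did not overlap. Of 8 mast cell and eosinophil markers, CLC was at or near 0 throughout, and the sum ran from 17031 to 23279 at D0 and from 459 to 1532 at D6 of the BAZ1B experiment. In the H2A.X experiment at D0 it was 1821 to 2456 in WT and 3679 to 7368 in KO, and at D6 2541 to 4069 in WT and 54.2 to 237 in KO. Of the 8, those with more than 3 reads in any library of a group were 4 in WT and 7 in KO at D0 there, and 3 in each at D6. In the BAZ1B experiment they were 7 in each genotype at D0, and 4 in WT and 3 in KO at D6. Of 5 megakaryocyte markers 1 had more than 3 reads in any library, and their sum at D0 was 153 to 170 in WT and 575 to 1330 in H2A.X KO. In the BAZ1B experiment it was lower in KO, with 1291 to 2542 against 2718 to 2836 at D0 and 53.4 to 179 against 312 to 390 at D6, and lower at D6 than at D0 in either genotype. Defining megakaryocyte (PF4, PPBP) and lymphoid (CD3E, MS4A1) genes were at or near 0 in all libraries. The part of these differences in the results below was not tested.

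Normalized counts given here are counts divided by the relative effective library size, within 1 experiment. To compare different genes they were also divided by the length of the canonical transcript in kilobases, a level per kb. A gene was called where the Benjamini-Hochberg adjusted p of edgeR's quasi-likelihood test over all genes tested was below 0.05.

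Of the 47 genes, 37 in the H2A.X experiment and 39 in the BAZ1B experiment had enough reads to be tested. SLC25A2, SLC25A18, SLC25A27, SLC25A31, SLC25A41, SLC25A47 and SLC25A52 were at 0 or had few reads in both experiments, with no more than 10 reads in any library. SLC25A24 and SLC25A34 were tested in the BAZ1B experiment alone. SLC25A6, an ADP/ATP carrier gene in the pseudoautosomal region shared by the X and Y chromosomes, was listed at 0 in all 22 libraries. So were all 27 of 27 pseudoautosomal gene names in the tables, which leaves its level unknown here.

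The cells expressed a few carriers at very high levels. In WT cells of the BAZ1B experiment at D0 the highest level per kb was that of SLC25A5, the main ADP/ATP carrier of dividing cells, with 12633 ± 162 (SD, n = 3). SLC25A3, which imports the phosphate needed to make ATP, followed with 3230 ± 70.3, and SLC25A39, which imports glutathione, with 2835 ± 73.3. The citrate exporter SLC25A1 came next at 1786 ± 52.7. The glycine importer SLC25A38, a gene whose loss causes a congenital sideroblastic anemia, was at 881 ± 17.3 in place 8 of the order. It did not differ from its neighbour SLC25A17 in place 7 (913 ± 30.8) by more than the sum of their SDs. The iron carrier SLC25A28 (mitoferrin-2) was at 425 ± 19.9. SLC25A4, the ADP/ATP carrier best known from heart and skeletal muscle, was at 275.5 ± 11, far under SLC25A5.

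At D6 the order had changed at its top. SLC25A39 now stood highest with 22879 ± 1800 per kb, above SLC25A5 with 16852 ± 595 and SLC25A3 with 3237 ± 113, and SLC25A38 had moved up to place 4 with 1886 ± 87.5. Behind it SLC25A21 (1459 ± 37.6) and SLC25A1 (1399 ± 93.5) did not differ by more than the sum of their SDs. SLC25A42, a carrier of coenzyme A, went from place 25 (224.5 ± 14.5) to place 9 (833 ± 106), while SLC25A43, whose substrate is not settled, went from place 14 (615 ± 19) to place 23 (230.1 ± 9.90). In WT cells of the H2A.X experiment SLC25A5 led at D0 with 8670 ± 1479 per kb (SD, n = 2), before SLC25A39 with 5924 ± 347, and SLC25A39 led at D6 with 13077 ± 3199 against 9568 ± 507 for SLC25A5, a difference within the sum of the SDs. The level of SLC25A3 depends on the transcript chosen, since its canonical transcript of 5984 bases is much longer than the median of 1364 bases over its 10 coding transcripts, so its place in the order is uncertain.

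**Figure D1:**
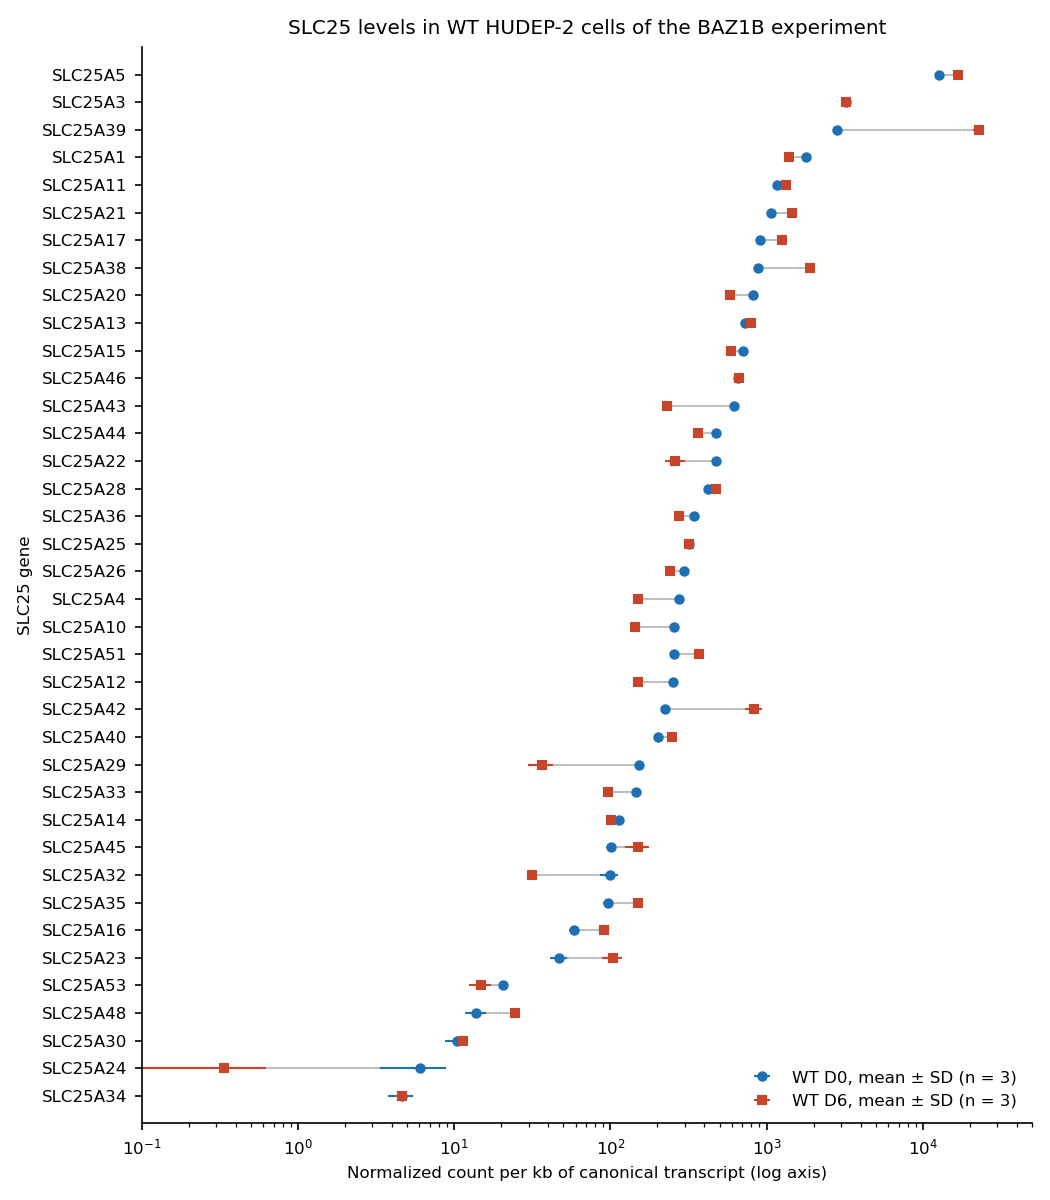
Level per kb of canonical transcript (horizontal log axis) of the tested SLC25 genes (1 left out) in WT HUDEP-2 cells of the BAZ1B experiment, as the mean and SD of 3 libraries at D0 (circles) and at D6 (squares). SLC25A39 moved from 2835 to 22879 and passed SLC25A5, and SLC25A29 and SLC25A32 lay far lower at D6 than at D0.

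SLC25A3, SLC25A5 and SLC25A39 together held 50.1% to 50.8% of all SLC25 reads in WT cells at D0 of the BAZ1B experiment and 64.4% to 66.3% at D6. The family as a whole took 0.223% to 0.226% of all counts in WT at D0 and 0.292% to 0.306% at D6, ranges that did not overlap. In BAZ1B KO it took 0.216% to 0.218% at D0, under the WT range, and 0.27% to 0.293% at D6, which overlapped the WT range. In the H2A.X experiment the family took 0.308% to 0.333% at D0 in WT and 0.234% to 0.251% in KO. At D6 there it took 0.342% to 0.365% in WT and 0.309% to 0.318% in KO, and no ranges overlapped between these genotypes at either day.

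Maturation from D0 to D6 was compared first in WT cells of the BAZ1B experiment, where the replicates lay closest together. Of 39 tested SLC25 genes, 33 were called (84.6%), against 68.9% of all 13879 genes tested, with 16 higher and 17 lower at D6 (33.5% and 35.4% of all genes). SLC25A24, among the lower ones here and in KO cells below, passed the filter through its D0 reads alone. Its fall was thus fixed in advance. The median log2 fold change over the 39 genes was -0.00045, beside -0.015 over all genes, and the family held genes that moved in either direction. In bulk samples of this kind, fewer cells of a type and less RNA per cell cannot be told apart. Erythroid marker counts rose over the same days, from a sum of 231159 to 259018 in WT at D0 to 1.41746e+06 to 1.6301e+06 at D6, and the mast cell and eosinophil sum fell, and the part of either in these differences was not tested.

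All 3 genes of the iron and glutathione group were called higher at D6, and 1 of them, SLC25A39, was still called after the length and GC correction. SLC25A39 (chr17:44319625-44324870 in GRCh38) had 4614, 4398 and 4434 normalized counts in the WT libraries at D0 and 35361, 33817 and 39335 at D6. Every D6 library was above every D0 library, and the log2 fold change was 3.01 ± 0.12 (SE, adjusted p = 3.9e-10), an 8.07-fold difference and the largest rise of the family. Its paralog SLC25A40 rose by a log2 fold change of 0.30, and SLC25A28 (chr10:99610519-99622793) rose by 0.17 ± 0.07 (adjusted p = 0.041), a call that was lost without replicate 1 or 3 of D0 and without replicate 2 or 3 of D6.

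Of the 8 tested carriers of amino acids and acylcarnitine, 2 rose and 6 fell. SLC25A38 (chr3:39383370-39397351) had 1824, 1836 and 1892 normalized counts at D0 and 3981, 3771 and 4138 at D6. No library of one day overlapped the other, and the log2 fold change was 1.10 ± 0.04 (adjusted p = 2.8e-10). SLC25A13, which exchanges aspartate for glutamate in the malate-aspartate shuttle, rose by 0.14 (not called without replicate 2 or 3 of D0 or replicate 1 of D6), whereas its paralog SLC25A12 fell by 0.76 on the log2 scale. SLC25A29 (chr14:100291116-100306547), which carries arginine and lysine, had 350.1, 357 and 349 normalized counts at D0 and 68.1, 98.4 and 84.6 at D6. It fell by 2.07 ± 0.20 (adjusted p = 9.0e-07). The carnitine/acylcarnitine carrier SLC25A20, the glutamate carrier SLC25A22, the ornithine carrier SLC25A15 and the branched-chain amino acid carrier SLC25A44 fell as well, by 0.49, 0.86, 0.27 and 0.38.

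Of the 9 tested carriers of cofactors and nucleotides, 4 rose and 5 fell. SLC25A42 (chr19:19063994-19113030) had 745, 682 and 774 normalized counts at D0 and 2504, 2541 and 3121 at D6, without overlap. The log2 fold change was 1.89 ± 0.10 (adjusted p = 2.1e-09). SLC25A16, which is also linked to coenzyme A, rose by 0.65, the peroxisomal coenzyme A and NAD+ carrier SLC25A17 by 0.45 and the NAD+ carrier SLC25A51 by 0.53. SLC25A32 (chr8:103398635-103415189), a folate carrier, had 327, 279 and 254 normalized counts at D0 and 94.9, 88.3 and 89.7 at D6, and fell by 1.66 ± 0.12 (adjusted p = 6.5e-08). Of its exonic bases, 69.7% are shared with other annotation on the same strand and 11.1% with annotation on the other strand, so its count is uncertain. SLC25A33 and SLC25A36 for pyrimidine nucleotides fell by 0.60 and 0.32, and SLC25A26 for S-adenosylmethionine by 0.30.

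The ADP/ATP carriers moved in opposite directions. SLC25A5 (chrX:119468422-119471396) had 16672, 16591 and 16271 normalized counts at D0 and 22507, 21128 and 22443 at D6, a log2 fold change of 0.42 ± 0.04 (adjusted p = 1.2e-06). SLC25A4 (chr4:185143266-185150382) had 1225, 1164 and 1260.4 at D0 and 702, 645 and 645 at D6, and fell by 0.87 ± 0.05 (adjusted p = 1.3e-08). Neither gene overlapped between the days, as was so for 78% of all genes in this comparison. The phosphate carrier SLC25A3 (chr12:98593591-98606379) had 19715, 19385 and 18879.5 at D0 and 19854, 18597 and 19654 at D6, with overlapping ranges and a log2 fold change of 0.0031 ± 0.04 (adjusted p = 0.95). SLC25A23 (chr19:6436079-6465203), a calcium-regulated carrier of ATP-magnesium and phosphate, had 186, 148 and 156 normalized counts at D0 and 419.6, 316 and 345 at D6, and it rose by 1.14 ± 0.36 (adjusted p = 0.012).

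Among the 6 carriers of carboxylates and keto acids, the oxodicarboxylate carrier SLC25A21 (0.45), the oxoglutarate carrier SLC25A11 (0.18) and SLC25A35 (0.63) rose, whereas the citrate carrier SLC25A1 (chr22:19175581-19178739) fell by 0.35 and the dicarboxylate carrier SLC25A10 (chr17:81712236-81721016) by 0.83. SLC25A10 shares 46.6% of its exonic bases with another annotated gene on its strand, and SLC25A21 and SLC25A35 share 37.2% and 28.7% with genes on the other strand, so these counts are uncertain too. SLC25A43 (chrX:119399336-119454478), of no settled role, had 1580.4, 1557 and 1489 normalized counts at D0 and 603, 575 and 553 at D6, and fell by 1.42 ± 0.06 (adjusted p = 5.1e-10). Neither tested carrier that resembles the uncoupling proteins, SLC25A14 and SLC25A30, was called.

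A stricter rule took the study's cutoffs, a log2 change of more than 1.5 either way and a p-value under 0.001, the latter set here on the adjusted p. By this rule 4 SLC25 genes passed in WT maturation. These were SLC25A39 and SLC25A42, higher, and SLC25A29 and SLC25A32, lower. Of all genes tested, 11.7% passed this rule. In BAZ1B KO maturation 3 SLC25 genes passed it, against 11.5% of all genes.

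The bases just before the transcription start are shown for 3 carriers that rose over maturation in both BAZ1B groups and in H2A.X KO cells, and for SLC25A4, which fell in the same groups. They were read from RefSeq on GRCh38.p14 and are given from position -250 to -1, or to -48 for SLC25A39, on the strand of the gene. Capitals mark matches to the GATA motif AGATAA, the E-box CACGTG and the CCAAT box, searched on both strands.
SLC25A39, minus strand, chr17:44324871-44325073: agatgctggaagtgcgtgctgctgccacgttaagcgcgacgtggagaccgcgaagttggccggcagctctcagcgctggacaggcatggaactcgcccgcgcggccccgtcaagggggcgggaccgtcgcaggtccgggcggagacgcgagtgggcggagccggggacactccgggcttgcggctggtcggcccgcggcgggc
SLC25A38, plus strand, chr3:39383120-39383369: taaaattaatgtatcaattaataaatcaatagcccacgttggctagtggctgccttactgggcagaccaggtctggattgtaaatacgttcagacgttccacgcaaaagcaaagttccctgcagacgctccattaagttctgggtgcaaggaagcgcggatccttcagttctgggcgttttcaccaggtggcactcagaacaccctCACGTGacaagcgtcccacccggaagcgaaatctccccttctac
SLC25A42, plus strand, chr19:19063744-19063993: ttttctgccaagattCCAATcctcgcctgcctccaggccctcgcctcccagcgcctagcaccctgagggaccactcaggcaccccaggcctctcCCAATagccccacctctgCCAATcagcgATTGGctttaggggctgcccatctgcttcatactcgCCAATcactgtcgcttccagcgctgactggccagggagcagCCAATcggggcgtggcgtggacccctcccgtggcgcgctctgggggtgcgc
SLC25A4, plus strand, chr4:185143016-185143265: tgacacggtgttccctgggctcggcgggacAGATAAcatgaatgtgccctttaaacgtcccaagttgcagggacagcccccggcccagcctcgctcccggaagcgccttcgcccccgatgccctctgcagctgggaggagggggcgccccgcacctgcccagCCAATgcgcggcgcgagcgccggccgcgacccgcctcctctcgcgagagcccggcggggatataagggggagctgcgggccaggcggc

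The window of SLC25A42 held 6 CCAAT boxes, that of SLC25A38 an E-box, and that of SLC25A4 a GATA motif and a CCAAT box. The letters of none of these motifs were found in the SLC25A39 window. Windows of 250 bases before to 50 bases after the start were at hand for 40 of the 47 genes. AGATAA was in 2 of them (5%), against 10.2% of 15842 coding genes, CACGTG in 9 (22.5%, against 10.9%) and CCAAT in 21 (52.5%, against 42.1%). These are matches of letters and say nothing on whether a factor is bound.

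**Figure D2:**
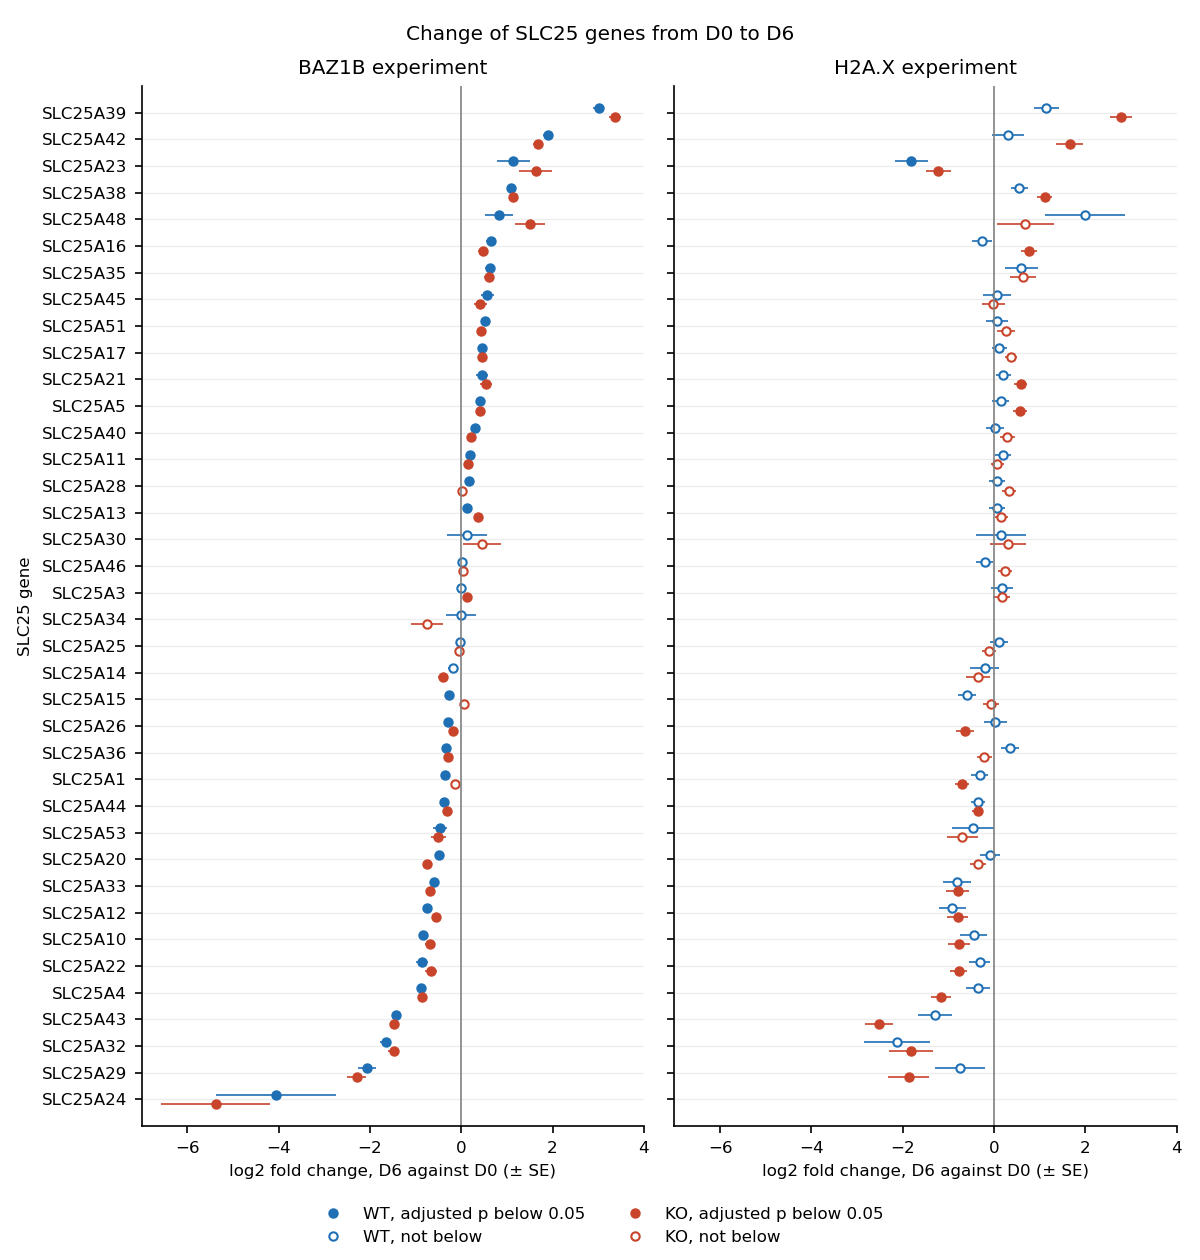
Log2 fold change from D0 to D6 (horizontal axis, with SE) of the tested SLC25 genes (1 left out) in WT (blue) and KO (red) cells of the BAZ1B experiment (left) and the H2A.X experiment (right), with filled symbols for an adjusted p below 0.05. SLC25A39 lies furthest to the right in the BAZ1B experiment (3.01 in WT, 3.37 in KO), SLC25A23 lies on opposite sides in the experiments, and most WT symbols of the H2A.X experiment are open.

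In BAZ1B KO cells the genes called between D0 and D6 were nearly as many, 32 of 39 (82.1%, against 67.7% of all genes), with 16 higher and 16 lower (33.2% and 34.5% of all genes). SLC25A39 rose from 3441, 2415 and 2447 to 25822, 30763 and 29391 normalized counts, with no overlap, by a log2 fold change of 3.37 ± 0.12 (adjusted p = 1.9e-10). SLC25A42 rose by 1.68 ± 0.10, SLC25A38 by 1.14 ± 0.04 and SLC25A23 by 1.63 ± 0.36. SLC25A29 fell by 2.29 ± 0.20, SLC25A32 by 1.47 ± 0.12, SLC25A43 by 1.47 ± 0.06 and SLC25A4 by 0.87 ± 0.05. The KO subclones differed widely in SLC25A23 at D0, where the libraries held 323, 72.5 and 139 normalized counts, and were close at D6 with 566, 554 and 535.

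In WT cells of the H2A.X experiment only SLC25A23 was called between D0 and D6, 1 of 37 genes (2.7%, against 2.0% of all 13236 genes tested, of which 0.839% were higher and 1.16% lower at D6), while 10 of the 37 had an unadjusted p below 0.05. SLC25A23 had 432 and 315 normalized counts at D0 and 139 and 69.8 at D6, and fell by 1.81 ± 0.36 (adjusted p = 0.038), a direction opposite to that in the BAZ1B experiment. The call was lost when either D0 library or the replicate 2 library of D6 was left out. SLC25A39 had 8979 and 9754 at D0 and 17098 and 24251 at D6. Both D6 libraries were higher, but at a log2 fold change of 1.14 ± 0.27 the adjusted p was 0.064. With a term for the replicate number, 4 genes were called, and SLC25A38 and SLC25A39 (higher at D6) and SLC25A43 (lower) were the ones added. That a WT number marks 1 subclone at both days rests on the label numbers and, with 2 WT libraries a day, on 1 correlation of 0.566, so these calls hold only if it does. SLC25A38 had 1467 and 1925 and 2245 and 2734 normalized counts at D0 and D6 (log2 fold change 0.55 ± 0.19, adjusted p = 0.14 without the term). SLC25A5 (0.14), SLC25A3 (0.16), SLC25A28 (0.06) and SLC25A4 (-0.35) were not called, and their ranges overlapped.

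H2A.X KO cells had 19 of 37 genes called between D0 and D6 (51.4%, against 30.9% of all genes), 6 higher and 13 lower (14.8% and 16.1% of all genes). SLC25A39 had 1789.9, 2524 and 2315 normalized counts at D0 and 13637, 20031 and 11969 at D6, a log2 fold change of 2.78 ± 0.24 (adjusted p = 8.9e-05). SLC25A42 rose from 265, 444 and 329.8 to 996, 1580.5 and 693, by 1.65 ± 0.29 (adjusted p = 0.0023), and SLC25A38 from 809, 949 and 876 to 1695, 2129 and 1849, by 1.11 ± 0.16 (adjusted p = 0.00081). No D6 library overlapped a D0 library in any of these, which held for 48.8% of all genes. SLC25A43, with 650.2, 743 and 716 normalized counts at D0 and 80.8, 127 and 158 at D6, fell by 2.53 ± 0.30 (adjusted p = 0.00034). SLC25A29 fell by 1.87 ± 0.46, SLC25A23 by 1.2 ± 0.28 and SLC25A4 by 1.17 ± 0.22. SLC25A39 and SLC25A43 also passed the stricter rule, which 3.22% of all genes passed.

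**Figure D3:**
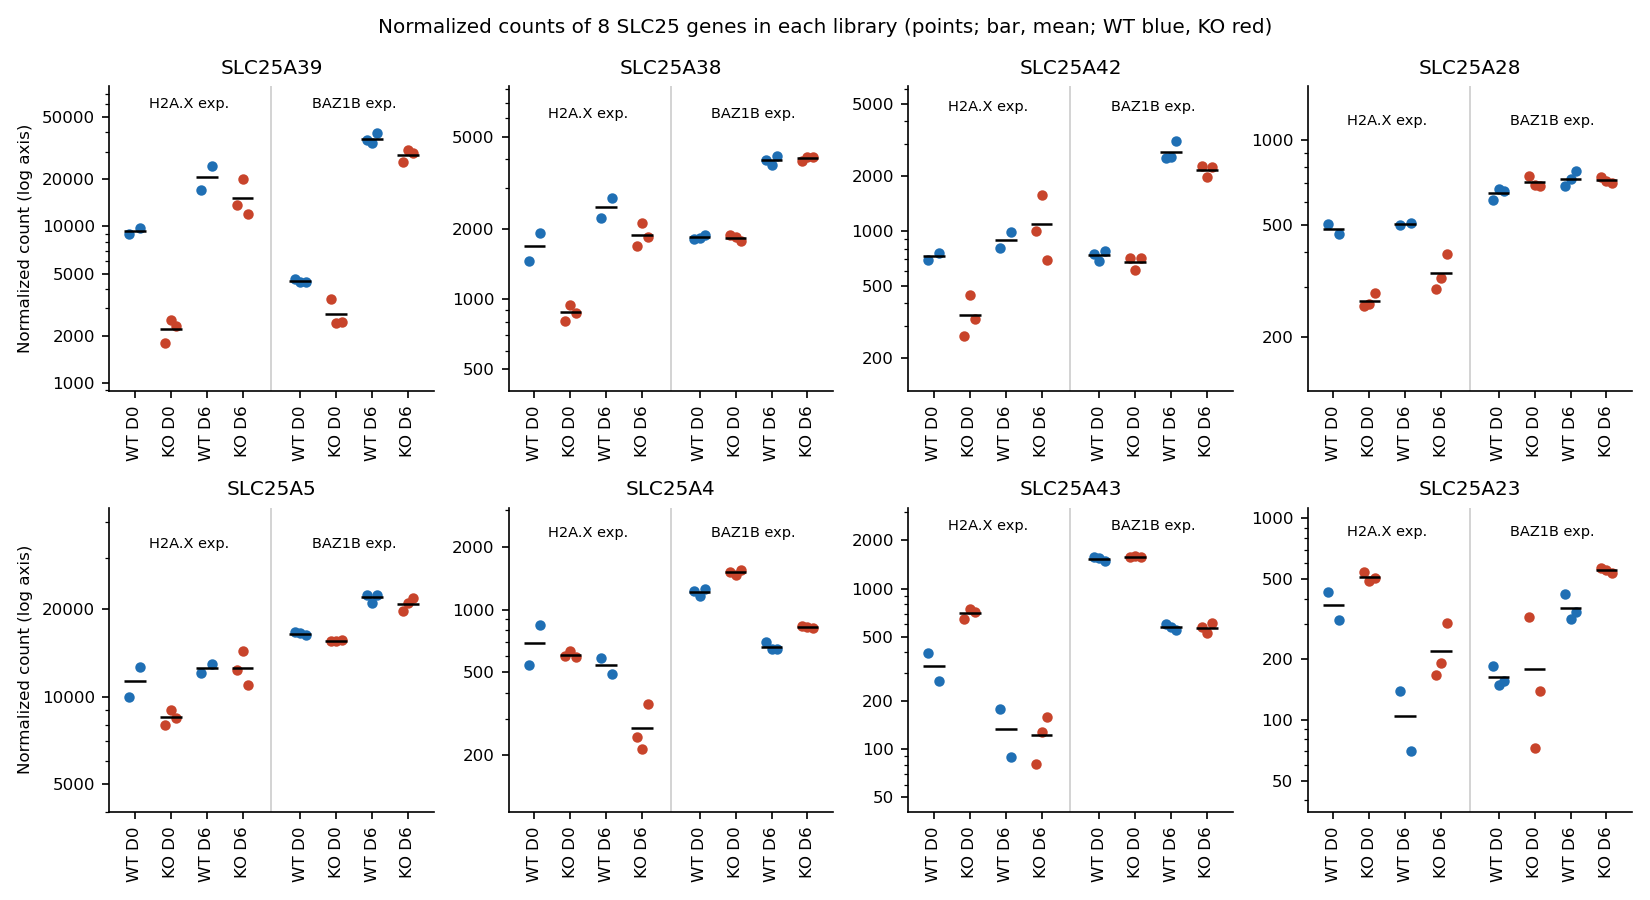
Normalized counts (vertical log axis) of 8 SLC25 genes in each library, WT in blue and KO in red, with a bar at the mean of each group, for the H2A.X experiment on the left and the BAZ1B experiment on the right of each panel. The 3 H2A.X KO libraries at D0 sit between 1790 and 2524 for SLC25A39, under both WT libraries, and SLC25A4 is higher in all BAZ1B KO libraries than in WT at both days.

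Loss of H2A.X at D0 came with 9 called SLC25 genes of 37 (24.3%), 3 higher and 6 lower in KO, against 35.1% of all 13236 genes, with 18.4% higher and 16.7% lower. Of all genes 70.3% were without overlap between KO and WT at D0. The median log2 fold change was -0.19 over the 37 genes and 0.013 over all genes. All 3 genes of the iron and glutathione group were called. SLC25A39 had 8979 and 9754 normalized counts in WT and 1789.9, 2524 and 2315 in KO, so that every KO library was under both WT libraries. The log2 fold change was -2.08 ± 0.25 (adjusted p = 0.0019), a 4.24-fold difference. SLC25A28 had 501 and 463 in WT and 258, 262 and 286 in KO (-0.84 ± 0.16, adjusted p = 0.0078), and SLC25A40 was higher in KO (0.55).

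SLC25A38 had 1467 and 1925 normalized counts in WT and 809, 949 and 876 in KO at D0, with no overlap and a log2 fold change of -0.95 ± 0.17 (adjusted p = 0.0065). SLC25A42 had 695 and 753 in WT and 265, 444 and 329.8 in KO (-1.06 ± 0.31, adjusted p = 0.026). SLC25A10 (-1.24 ± 0.26) and SLC25A3 (-0.76 ± 0.22) were lower as well. In SLC25A3 the WT libraries lay far apart, with 11902 and 18452, against 8623, 9160.4 and 9031 in KO. SLC25A43 had 394 and 267 in WT and 650.2, 743 and 716 in KO (1.09 ± 0.33, adjusted p = 0.028), and SLC25A36 was higher too (0.81 ± 0.18). Of the 6 genes lower in KO, 4 (SLC25A28, SLC25A38, SLC25A39 and SLC25A42) were among those that rose over maturation in WT cells of the BAZ1B experiment, SLC25A10 fell there and SLC25A3 was not called. Of the 3 higher in KO, SLC25A36 and SLC25A43 fell there and SLC25A40 rose. Of all genes tested in that comparison, 33.5% rose and 35.4% fell. The share among all genes lower or higher in H2A.X KO was not computed, so these counts are not a result about the carriers. With the length and GC correction alone, SLC25A28 and SLC25A40 lost both their calls. SLC25A5 (9965 and 12698 in WT, 7972, 9017 and 8458 in KO, log2 fold change -0.42, adjusted p = 0.073) and SLC25A4 (-0.19, adjusted p = 0.57) were not called.

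Summed erythroid markers were lower in KO at D0 as given above, and their part in the D0 differences was not tested. Across 11717 genes the KO against WT log2 fold change at D0 had a Spearman's rho of 0.544 with transcript length, a value over genes, which are not independent replicates. After each library was corrected for length and GC content 8 SLC25 genes were called, 5 of them among the 9. SLC25A39 (-1.56 on the log2 scale, adjusted p = 0.0065), SLC25A38 (-0.67, adjusted p = 0.016), SLC25A10, SLC25A3 (-1.33) and SLC25A43 (1.21) stayed called, and SLC25A28 (-0.34), SLC25A36 (0.31), SLC25A40 and SLC25A42 did not. SLC25A10 went to -0.71 (adjusted p = 0.048) and lost its call once the replicate block was added (adjusted p = 0.060). SLC25A42 was at -1.02 (adjusted p = 0.051), close to its uncorrected value, and was called with the block added (-0.86, adjusted p = 0.026). Without the WT replicate 2 library 1 gene, SLC25A39, was called, and the values of SLC25A10 (-0.75) and SLC25A3 (-0.41) were well nearer to 0. Without KO replicate 1 or KO replicate 3, 5 genes were called. The call of SLC25A40 was lost with any of the 5 libraries left out, and those of SLC25A3, SLC25A42 and SLC25A43 with 4 of the 5. SLC25A39 stayed between -2.19 and -1.95 with each library left out.

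At D6, 13 of 37 genes were called (35.1%), 4 higher and 9 lower in KO, against 43.1% of all genes, with 22.2% higher and 20.9% lower. The 9 lower ones included 3 of the 5 tested carriers of carboxylates and keto acids, SLC25A10 (-1.57 ± 0.27, adjusted p = 0.0040), SLC25A1 (-0.68) and SLC25A11 (-0.54). SLC25A10 had 287 and 326 normalized counts in WT and 93.7, 86.5 and 129 in KO. SLC25A4 had 588 and 494 in WT and 246, 214 and 354 in KO (-1.0 ± 0.24, adjusted p = 0.0099), and SLC25A26 had 459 and 476 and 207, 215 and 258 (-1.05 ± 0.23, adjusted p = 0.0065). None of the 3 overlapped between genotypes, as was so for 63.3% of all genes.

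SLC25A3 (-0.76 ± 0.22), SLC25A28 (-0.58 ± 0.16) and SLC25A20 (-0.67) were also lower in KO at D6. Those higher were SLC25A23 (1.05 ± 0.33), SLC25A46 (0.89 ± 0.17), a protein of the outer mitochondrial membrane with a role in mitochondrial shape, SLC25A40 (0.82 ± 0.19) and SLC25A16 (0.82 ± 0.21). SLC25A46 had 1140.0 and 982 normalized counts in WT and 2095, 2238 and 1574 in KO, with no overlap. SLC25A39 had 17098 and 24251 in WT and 13637, 20031 and 11969 in KO, with overlapping ranges (-0.44 ± 0.24, adjusted p = 0.165), and SLC25A38 was at -0.40 ± 0.17 (adjusted p = 0.083). SLC25A5 was at 0.0055 (adjusted p = 0.98).

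The D6 calls rested on few libraries. They were lost without the WT replicate 2 library at D6, the smallest of the series with 11910141 counts. Leaving it out leaves 1 WT library whose spread is assumed to be that of the other groups. SLC25A23 stood at 0.68 without WT replicate 2 and at 1.68 without WT replicate 1. The values of SLC25A10 (-1.73 to -1.45), SLC25A26 (-1.12 to -0.99) and SLC25A4 (-1.20 to -0.84) moved less with any 1 library left out. Without WT replicate 1 the calls of SLC25A4 and SLC25A28 were among those lost, without KO replicate 1 those of SLC25A3, SLC25A11 and SLC25A28, without KO replicate 2 those of SLC25A3 and SLC25A20, and without KO replicate 3 that of SLC25A23. The rho with transcript length was 0.598 at D6, and the length and GC correction left 9 called genes, of which 5 (SLC25A3, SLC25A4, SLC25A10, SLC25A23 and SLC25A26) were among the 13. With it the log2 fold change of SLC25A28 turned to 0.10 and that of SLC25A39 to 0.35. Of the 4 genes higher in KO, SLC25A46 (0.22), SLC25A40 (0.26) and SLC25A16 (0.0063) were much nearer to 0 and not called, and SLC25A23 stayed at 1.09 (adjusted p = 0.033). No SLC25 gene passed the stricter rule in H2A.X KO against WT at D0 or D6, which 0.166% and 0.151% of all genes passed.

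Whether the KO difference itself changed between the days was tested as an interaction. By edgeR's quasi-likelihood test 0 of 37 genes was called, against 1.34% of all genes, with 6 genes at an unadjusted p below 0.05 and 2 (SLC25A16 and SLC25A39) called by DESeq2. SLC25A39 came closest, with a difference of 1.64 ± 0.35 in log2 fold change between D6 and D0 (adjusted p = 0.055). It was called by DESeq2 (1.66), with a term for the subclone, taken from the replicate number (1.64 ± 0.23, adjusted p = 0.0096), with upper-quartile normalization, without the filter on low counts and with the length and GC correction (1.91 ± 0.35, adjusted p = 0.030). SLC25A42 was called with the subclone term (1.31 ± 0.28, adjusted p = 0.039) and without the filter on low counts (1.40 ± 0.32, adjusted p = 0.00064), but not by the test as first described (1.35 ± 0.45, adjusted p = 0.19), and SLC25A16 by DESeq2 but not by edgeR (1.02 ± 0.28, adjusted p = 0.12). Without KO replicate 3 at D6, the library whose name lacks the "Redo" mark, edgeR called SLC25A16, SLC25A39 and SLC25A42. SLC25A36 was called with the length and GC correction (-0.84 ± 0.17, adjusted p = 0.039) and SLC25A43 without the filter (-1.20 ± 0.37, adjusted p = 0.036).

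**Figure D4:**
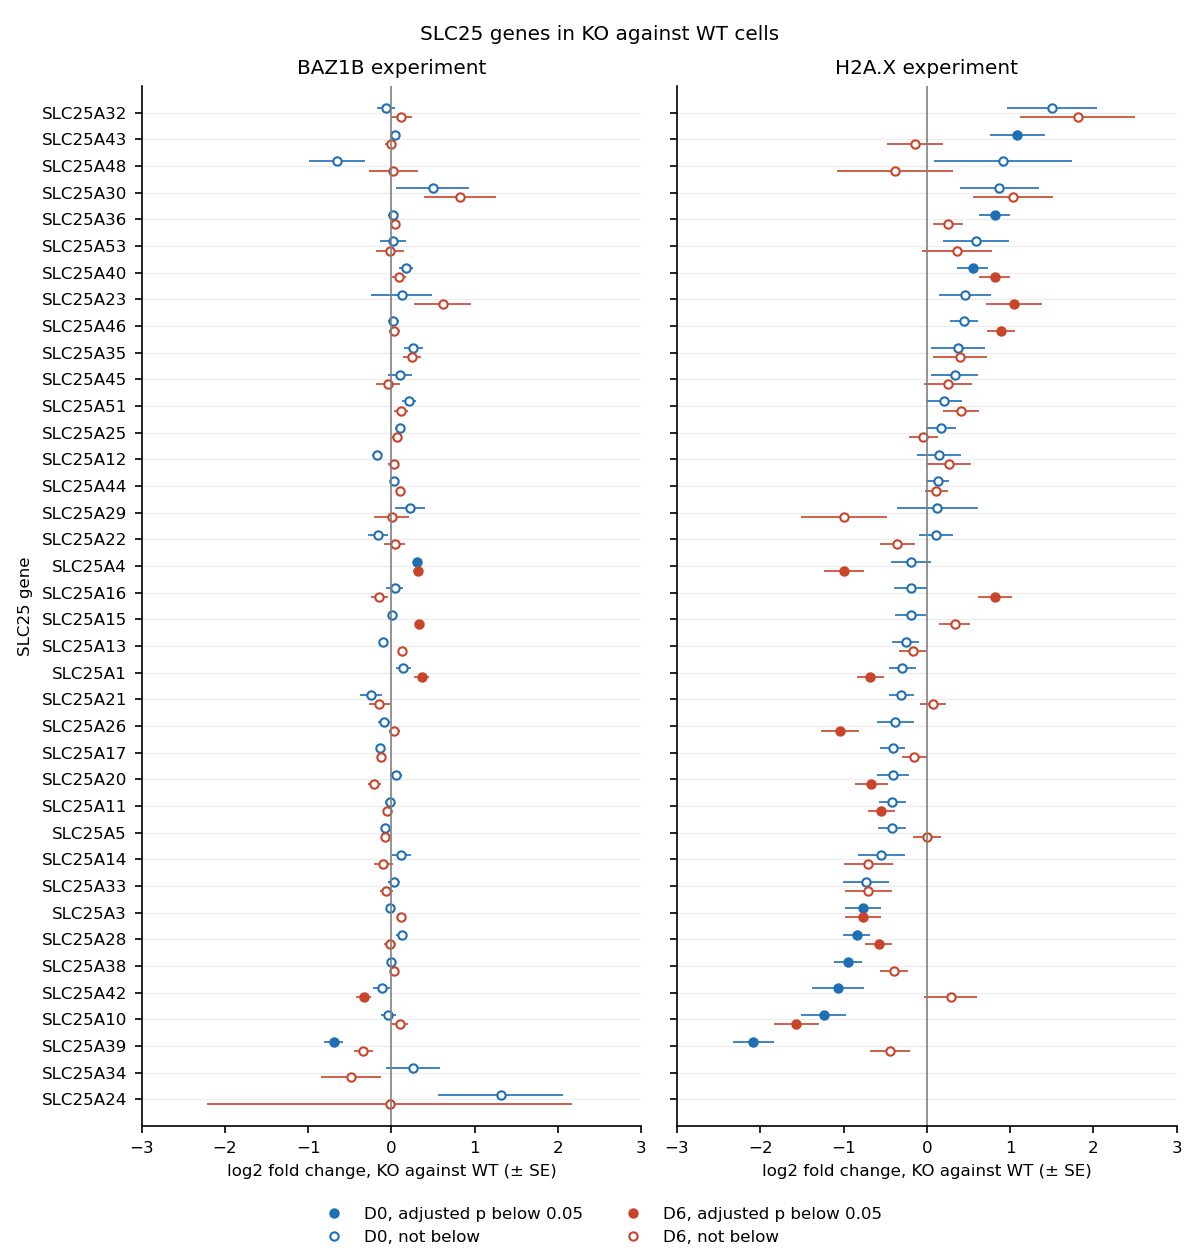
Log2 fold change of KO against WT (horizontal axis, with SE) of the tested SLC25 genes (1 left out) at D0 (blue) and D6 (red) in the BAZ1B experiment (left) and the H2A.X experiment (right), with filled symbols for an adjusted p below 0.05. In the H2A.X experiment SLC25A39 moves from -2.08 at D0 to -0.44 at D6, and in the BAZ1B experiment most genes lie near 0.

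Few SLC25 genes were called in BAZ1B KO against WT. At D0 they were 2 of 39 (5.13%), against 3.88% of all genes, with 1 higher and 1 lower (1.25% and 2.64% of all genes). SLC25A39 had 4614, 4398 and 4434 normalized counts in WT and 3441, 2415 and 2447 in KO, with no overlap, and a log2 fold change of -0.70 ± 0.12 (adjusted p = 0.0043). SLC25A4 had 1225, 1164 and 1260.4 in WT and 1520.1, 1461 and 1544 in KO, a log2 fold change of 0.31 ± 0.05 (adjusted p = 0.0043). Summed erythroid markers at D0 were 272999 to 291435 in KO and 231159 to 259018 in WT, without overlap, and megakaryocyte markers were lower in KO as given above. The part of either in these differences was not tested. Both calls held with each library left out, and without KO replicate 1 the count rose to 6, with SLC25A13, SLC25A24, SLC25A40 and SLC25A48 added. SLC25A38 (-0.0069, adjusted p = 0.97), SLC25A3 (-0.02, adjusted p = 0.90), SLC25A5 (-0.08, adjusted p = 0.37) and SLC25A28 (0.13, adjusted p = 0.41) were not called. The SLC25A5 libraries held 15584, 15578 and 15655 normalized counts in KO and 16672, 16591 and 16271 in WT, 1 of the genes without overlap, which were 22.5% of all genes here.

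At D6, 4 of 39 genes were called (10.3%, against 12.8% of all genes), 3 higher and 1 lower (6.87% and 5.97% of all genes). SLC25A4 was again higher in KO, with 702, 645 and 645 normalized counts in WT and 835, 829.8 and 815 in KO (0.32 ± 0.05, adjusted p = 0.0022). SLC25A15 (chr13:40789412-40812460) had 2288, 2388 and 2089 in WT and 2728, 2871 and 2940.2 in KO (0.34 ± 0.05, adjusted p = 0.00070), and SLC25A1 had 2225, 2001 and 2271 and 2522, 3127 and 2729 (0.37 ± 0.09, adjusted p = 0.019). SLC25A42 was lower, with 2504, 2541 and 3121 in WT and 2278, 1968 and 2244 in KO (-0.33 ± 0.09, adjusted p = 0.030). No KO library overlapped a WT library in any of the 4, while 30.8% of all genes were without overlap in this comparison. Without KO replicate 2 the calls of SLC25A1 and SLC25A42 were lost, SLC25A42 was also lost without KO replicate 3 or WT replicate 3, and SLC25A1 without WT replicate 2. No SLC25 gene passed the stricter rule in BAZ1B KO against WT, which 0.360% of all genes passed at D0 and 0.749% at D6. SLC25A39 was at -0.34 ± 0.11 (adjusted p = 0.071), with 25822, 30763 and 29391 in KO under 35361, 33817 and 39335 in WT. It was called by DESeq2 (adjusted p = 0.023), with the length and GC correction (adjusted p = 0.048), with the libraries of D6 alone and without the filter. SLC25A3 (0.11), SLC25A5 (-0.08), SLC25A28 (-0.02) and SLC25A38 (0.03) were not called by edgeR, and SLC25A3 was called by DESeq2 (adjusted p = 0.045). Erythroid marker sums at D6 ran from 1.196e+06 to 1.41202e+06 in KO and from 1.41746e+06 to 1.6301e+06 in WT, and their part and that of the lower megakaryocyte sum in these differences was not tested.

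The change of the BAZ1B KO difference from D0 to D6 was called for SLC25A15 alone, 1 of 39 genes (2.56%, against 2.47% of all genes). Its log2 fold change differed by 0.33 ± 0.07 (adjusted p = 0.026): WT subclones went from 2707, 2695 and 2756 at D0 to 2288, 2388 and 2089 at D6, and KO subclones from 2743, 2764 and 2667 to 2728, 2871 and 2940.2. With the subclone term SLC25A13 was called as well (0.23 ± 0.06, adjusted p = 0.041). The term pairs WT libraries of the 2 days by their number. Their correlations were only -0.0343 to 0.219, so this call holds only if a WT number marks 1 subclone. With 1 library left out at a time the count of called genes ran from 0 to 4, and it was 4 without KO replicate 1 at D0. The call of SLC25A15 was lost in 8 of these 12 cases.

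The 25 genes that work beside the SLC25 carriers, the other mitochondrial pore and carrier proteins and the machinery that inserts carriers, were read as a list, and 24 of them had enough reads. In WT maturation of the BAZ1B experiment 11 of the 24 rose and 9 fell, beside 33.5% and 35.4% of all genes. MPC2, a subunit of the mitochondrial pyruvate carrier, rose by 2.14 ± 0.08, while its partner MPC1 fell by 0.26 ± 0.06. The heme precursor transporters TMEM14C (1.49 ± 0.06) and ABCB10 (1.43 ± 0.04) and the uncoupling protein family member UCP2 (1.96 ± 0.09) rose, and the sideroflexin SFXN3 (-2.29 ± 0.10) and the outer membrane channel VDAC1 (-0.84 ± 0.05) fell. In BAZ1B KO maturation 12 rose and 6 fell (33.2% and 34.5% of all genes), and in H2A.X KO maturation 8 rose and 2 fell (14.8% and 16.1%).

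In H2A.X KO against WT at D0 1 of the 24 was higher and 10 were lower, beside 18.4% and 16.7% of all genes. SFXN3 was higher (2.59 ± 0.36, adjusted p = 0.0034). Among the lower ones were MPC2 (-1.54 ± 0.23), TMEM14C (-0.94 ± 0.18) and 4 genes of the machinery that inserts carriers into the inner membrane, TIMM10 (-1.38 ± 0.25), TIMM9 (-0.90 ± 0.22), TIMM29 (-0.87 ± 0.21) and TIMM22 (-0.82 ± 0.22). AGK, TIMM10B and TOMM70 of the same import pathway were not called at D0. At D6, 3 were higher and 7 lower (22.2% and 20.9% of all genes), with TIMM10 at -1.13 ± 0.25 and TOMM70 among the higher ones. Over all genes, the H2A.X KO differences had a rho of 0.544 with transcript length at D0 and 0.598 at D6. For this list the calls were not read after the length and GC correction or with libraries left out. In the H2A.X interaction edgeR called UCP2 alone of the list (1.58 ± 0.29, adjusted p = 0.032), from -0.98 ± 0.20 at D0 to 0.59 ± 0.21 at D6, with 7 at an unadjusted p below 0.05 and 3 called by DESeq2. SFXN3 had a larger difference there (-2.22 ± 0.47, adjusted p = 0.053) and was not called by edgeR. In WT maturation of the H2A.X experiment edgeR called 0 of the 24, with 6 at an unadjusted p below 0.05 and 4 called by DESeq2. In BAZ1B KO against WT at D0 edgeR and DESeq2 both called 0, with 1 at an unadjusted p below 0.05. In the BAZ1B interaction edgeR called 0, with 3 at an unadjusted p below 0.05 and 1 called by DESeq2. At D6 VDAC2 (0.14) was higher and ABCB10 (-0.15) lower in BAZ1B KO.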

How the data were processed

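RNA was sequenced in 22 libraries of HUDEP-2 subclones (H2A.X experiment: 2 WT and 3 KO at D0 and D6; BAZ1B experiment: 3 WT and 3 KO). The deposited values are whole-number read counts for each gene, 1 table per experiment, which the authors did not normalize. The submitters' processing notes name STAR 2.7.0f, Subread 1.6.4 with featureCounts, DESeq2 1.22.1 and hg38, and the study names GENCODE genes. The sample labels name an unstranded kit and the study's methods a stranded one, so whether counting used strand is not given in the sources used here. All columns were assigned to samples by their names.

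Each experiment was analysed on its own with edgeR 4.0.16 and limma 3.58.1 in R 4.3.3. Genes were kept by filterByExpr (minimum count 10, minimum total 15), scaled by TMM and tested by quasi-likelihood, with the libraries of both days in 1 model that holds a mean for every genotype at every day. Tests were two-sided and p-values were adjusted by Benjamini-Hochberg over all genes tested. The SE was taken from the F statistic, and errors of levels are SDs over subclones. Alternatives were DESeq2 1.42.0, upper-quartile normalization, no filter, the compared day alone, a term for the replicate number or subclone, a correction for transcript length and GC content (mgcv 1.9.3), and leaving out each library in turn. Names were matched to GENCODE on GRCh38, 36460 of them by symbol, and promoters were read from RefSeq on GRCh38.p14.

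Total counts were 11910141 to 41273244 per library. Reads carry no molecular identifiers. The code was tested on simulated data, for KO against WT at D0. In the H2A.X experiment it called 1 of 67 genes with a true log2 change of 0.5, 20 of 67 at 1 and 62 of 66 at 2. For the BAZ1B experiment these were 53 of 67, 63 of 67 and 66 of 66. Among unchanged genes 2 of 13036 and 6 of 13679 were called. Fewer genes were changed there than were called in the data, so these shares do not carry over directly.

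The D0 and D6 libraries of a KO number come from 1 subclone. For WT the labels do not say so. Correlations of same-numbered deviations from the group means between D0 and D6 were 0.271 to 0.566 in the H2A.X experiment, 0.125 to 0.547 in BAZ1B KO and -0.0343 to 0.219 in BAZ1B WT, so a subclone term is given where it changes a call. Between KO and WT the numbers name different subclones.

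The genes and lists were chosen with earlier results of these data known. Named in each comparison are the called genes, at most the 8 with the largest change among those whose mean normalized count reached 50, and SLC25A3, SLC25A4, SLC25A5, SLC25A6, SLC25A28, SLC25A38 and SLC25A39 in KO against WT and in WT maturation. Genes given beside them in the account of a substrate group were chosen by their group. 1 gene that entered the counts is not reported here.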

Additional observations from a re-analysis of the deposited data

Results flagged for a closer look

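SLC25A15, the ornithine carrier, was the 1 SLC25 gene whose BAZ1B KO difference changed between the days by the interaction test. The KO difference at D6 exceeded that at D0 by 0.33 on the log2 scale. All 3 WT subclones had fewer normalized counts at D6 than at D0, and 2 of the 3 KO subclones had more.

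3 carriers had log2 fold changes from D0 to D6 of opposite sign in the 2 experiments, with all D6 libraries on one side of all D0 libraries in each. The experiments are separate tables with their own normalization, and the difference between them was not tested. In WT cells the log2 fold change of SLC25A23 was -1.81 in the H2A.X experiment and 1.14 in the BAZ1B experiment, and in KO cells it was -1.22 and 1.63. SLC25A16 was at -0.26 in WT of the H2A.X experiment, where it was not called, and at 0.65 in the BAZ1B experiment. SLC25A36 was at 0.35 in WT of the H2A.X experiment, again not called, and at -0.32 in the BAZ1B experiment. Groups held 2 or 3 libraries, too few to test for a single library far from the rest.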

How the results depend on the processing

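The H2A.X experiment has the lower depth, 2 WT subclones and the wider spread between replicates, so a gene not called there may still differ. Counts of called SLC25 genes that moved by over 1.5 times are given with the setting. In H2A.X KO against WT at D6, 8 were called with the libraries of D6 alone. In WT maturation of the H2A.X experiment DESeq2 called 3, and no filter, the replicate block by subclone, and the length and GC correction with that block 4 each. In the H2A.X interaction upper-quartile normalization called 1, DESeq2, the replicate block by subclone and the length and GC correction 2 each, no filter 3, and the correction with the block 4. Without a filter BAZ1B KO against WT gave 4 at D0 and 7 at D6. In the BAZ1B interaction DESeq2, no filter, the replicate block by subclone and the correction with that block called 2 each. The cause was not tested. The replicate block by number gave 11 called genes at D0 and 17 at D6 in H2A.X KO against WT, with all 9 and all 13 among them, and 2 and 5 in BAZ1B; the numbers are not shared by KO and WT subclones in any known way, with correlations of 0.105 to 0.242 in the H2A.X and -0.128 to 0.231 in the BAZ1B experiment. Apart from the interactions and WT maturation in the H2A.X experiment, the block by subclone lost SLC25A44 and added SLC25A35 in H2A.X KO maturation, lost SLC25A26 and added SLC25A1 in BAZ1B KO maturation, and changed no call in BAZ1B WT maturation.

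With 1 library left out, the counts ran from 1 to 13 at D0 and 0 to 16 at D6 in H2A.X KO against WT, from 0 to 1 in WT and 13 to 21 in KO maturation and from 0 to 3 in the interaction. In the BAZ1B experiment they ran from 2 to 6 at D0 and 2 to 6 at D6, from 29 to 32 in WT and 29 to 33 in KO maturation and from 0 to 4 in the interaction. Where this leaves 1 WT library, that library is assumed to vary like the other groups.

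Directions turned in genes that had not been called, and in SLC25A16 and SLC25A28, which had been called in H2A.X KO at D6. The length and GC correction, alone and with the replicate block, gave log2 fold changes of 0.064 and 0.143 for SLC25A5 in H2A.X KO at D0, of 0.102 and 0.0599 for SLC25A28 and 0.35 and 0.42 for SLC25A39 at D6, of -0.12 and -0.12 for SLC25A28 in WT maturation of the H2A.X experiment, and of 0.0045 and 0.0043 for SLC25A3 in BAZ1B KO at D0. With the block it gave -0.00225 for SLC25A16 in H2A.X KO at D6. Upper-quartile normalization gave -0.11 for SLC25A5 in H2A.X KO at D6 and 0.0019 for SLC25A38 in BAZ1B KO at D0. With 1 library left out, values spanned 0 for SLC25A4 in H2A.X KO at D0 (-0.47 to 0.17), SLC25A5 at D6 (-0.11 to 0.13), SLC25A3 (-0.13 to 0.50), SLC25A5 (-0.032 to 0.32) and SLC25A28 (-0.0042 to 0.11) in WT maturation of the H2A.X experiment, SLC25A38 in BAZ1B KO at D0 (-0.029 to 0.013) and D6 (-0.0069 to 0.058), SLC25A28 in BAZ1B KO at D6 (-0.060 to 0.024) and SLC25A3 in WT maturation of the BAZ1B experiment (-0.013 to 0.041). Over all named genes and settings 766 values kept their direction and side of the threshold, 72 lost a call, 19 gained one and 26 turned.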

Other observations

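SLC25A24, a calcium-regulated carrier of ATP-magnesium and phosphate (chr1:108134043-108200849), varied widely among the BAZ1B KO subclones at D0. The 3 KO libraries held 1.97, 119.5 and 70.6 normalized counts, against 39.3, 18.1 and 20.3 in WT, and at D6 no library of either genotype was above 2.32. It passed the filter through its D0 reads alone, so its fall between D0 and D6 in WT and KO was fixed in advance. The test of that fall is therefore not read as a result. This gene and SLC25A21 were chosen after their values were seen. In the H2A.X experiment the KO libraries at D0 held 19.4, 6.87 and 2.47 normalized counts and it was not tested. SLC25A21, the oxodicarboxylate carrier, was lowest in BAZ1B KO replicate 1 at both days, with 2866, 4096 and 3549.6 normalized counts in the KO libraries at D0 and 4077, 6095 and 5239 at D6, against 4205, 4095 and 4185 and 5765, 5509.5 and 5761 in WT.

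The SLC25 pseudogenes took almost no reads. The 40 pseudogene names, 9 of them copies of SLC25A5, held 66 reads over all libraries of the H2A.X experiment and 91 over those of the BAZ1B experiment, while SLC25A5 itself held 108379 and 223029.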
